A study of Mus musculus with 2 samples.

Results

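Genes of vertebrate phototransduction, 36 in all, were followed in single-cell RNA libraries made from the mouse eye. They were taken by symbol from the 31053 mouse genes of the feature tables, and 36 of 36 were found and had at least 1 UMI (unique molecular identifier, 1 counted RNA molecule) in both libraries. Of these, 10 are rod genes (Gnat1, Gngt1, Pde6a, Pde6b, Pde6g, Cnga1, Cngb1, Slc24a1, Nrl and Nr2e3). Another 6 are listed as cone genes (Opn1sw, Opn1mw, Arr3, Gnat2, Gnb3 and Pde6h), and 20 are known from both cell types and are called shared here (Sag, Rcvrn, Pdc, Guca1a, Guca1b, Gucy2e, Gucy2f, Prph2, Rom1, Rp1, Crx, Aipl1, Rgs9, Unc119, Tulp1, Rdh12, Rbp3, Abca4, Impg1 and Impg2).

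In a photoreceptor, light activates an opsin, the opsin activates the G protein transducin, and transducin releases the inhibitory subunit of a phosphodiesterase that breaks down cyclic GMP. Loss of cyclic GMP closes cation channels in the outer segment. Arrestins, recoverin, RGS9 and the guanylyl cyclases with their activating proteins end the response and restore the dark state. Rods and cones use separate genes for several of these steps, and most photoreceptors of the mouse retina are rods.

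The libraries came from C57BL/6 mice whose eyes had been injected with zymosan, a yeast cell wall preparation. The NRS group was given normal serum and the aCXCR2 group antiserum against the chemokine receptor CXCR2, and each group was 1 library. The labels do not say how many animals a library holds, nor their age. Cells came from the vitreous fluid and from a saline rinse of the retina, and were purified with magnetic beads against Ly6G, a neutrophil surface protein, so photoreceptors lie outside the cell type that was sorted for.

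The NRS library held 7314 barcodes with 61386486 UMIs (median 4649 per barcode), and the aCXCR2 library 5551 barcodes with 85748842 UMIs (median 9182). Of these, 5655 and 4826 had 200 or more genes with no more than 10% mitochondrial UMIs and were clustered with the phototransduction genes left out of the clustering genes. Levels are in CPM, the UMIs of a gene as a share of all UMIs of a class of barcodes, scaled to a total of 1000000, and with 3' counting they are not divided by gene length. No group has a replicate, so nothing was tested, and each 95% interval (in parentheses, exact Poisson, binomial or conditional) covers counting error only. A gene is counted as lower or higher when its ratio between the libraries was at least 2-fold and it had at least 10 CPM in 1 of them.

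The libraries shared 101 cell barcodes, which bears on several values given here. Of the 101, 86 had more UMIs in NRS, with a median of 67368 UMIs there and 734 in aCXCR2. In the photoreceptor-like class of NRS, 39 of 692 barcodes were shared, and these 39 held 36.3% of the UMIs of the class. All 39 were deeper in NRS, at a median of 76000 UMIs against 734. Only 5 of the 215 photoreceptor-like barcodes of aCXCR2 were shared, with 0.375% of its UMIs. Values without the shared barcodes, where counted, stand beside the results they bear on.

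The 250 bases upstream of the gene starts are shown first, because these genes carry a recurring sequence there that the choice of genes did not use. TAATCC, in either orientation, is the core recognized by homeobox factors such as CRX, which is itself among the genes. RefSeq promoter windows (GRCm38.p6) were at hand for 29 of the 36 genes. TAATCC was found in 13 of 29 (44.8%), against 7.21% of 27025 genes in the table. By group it was in 3 of 7 rod, 9 of 17 shared and 1 of 5 cone genes with a window. The shorter TAATC, which TAATCC contains, was in 22 of 29 (75.9%) against 22.3% of genes. A match is a description of letters and does not show binding.

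The windows of 6 genes are printed, each as the 120 bases before the gene start, 5' to 3' on the gene's strand, with the match in capitals (GGATTA is TAATCC read from the other strand). Cngb1, Sag and Rbp3 show the 6-base match in a rod gene and in 2 abundant shared genes. Arr3 is the cone gene with 3 copies of the shorter match. Rdh12 and Guca1a are shown because their levels outside photoreceptors, described further on, departed from those of the other genes.
Cngb1, minus strand of chr8:95306586-95306705: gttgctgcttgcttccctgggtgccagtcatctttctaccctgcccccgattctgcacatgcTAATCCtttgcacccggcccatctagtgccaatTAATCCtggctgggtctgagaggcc
Sag, plus strand of chr1:87803560-87803679: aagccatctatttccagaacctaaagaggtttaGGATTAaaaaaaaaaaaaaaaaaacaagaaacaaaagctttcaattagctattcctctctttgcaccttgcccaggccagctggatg
Rbp3, plus strand of chr14:33953883-33954002: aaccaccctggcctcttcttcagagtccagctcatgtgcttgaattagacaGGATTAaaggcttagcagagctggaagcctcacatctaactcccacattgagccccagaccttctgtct
Arr3, plus strand of chrX:100605377-100605496, TAATC in capitals: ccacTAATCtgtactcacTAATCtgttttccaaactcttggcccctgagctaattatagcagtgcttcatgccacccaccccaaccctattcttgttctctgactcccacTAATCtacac
Rdh12, plus strand of chr12:79208793-79208912, TAATC in capitals: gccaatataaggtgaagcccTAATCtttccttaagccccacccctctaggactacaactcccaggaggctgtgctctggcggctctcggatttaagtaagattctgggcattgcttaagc
Guca1a, minus strand of chr17:47400607-47400726: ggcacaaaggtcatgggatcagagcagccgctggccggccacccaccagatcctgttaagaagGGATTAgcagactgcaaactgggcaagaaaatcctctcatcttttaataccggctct

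Over all barcodes of a library, phototransduction RNA was far more abundant in NRS. The 36 genes together were at 23536 CPM in the NRS library and 2148 CPM in the other, an 11-fold difference. The rod genes were at 8198 and 675 CPM (12.1-fold lower in aCXCR2), the shared genes at 14524 and 1399 CPM (10.4-fold), and the cone genes at 814 and 74.2 CPM (11-fold). Gnb3 alone was at 659 and 63.9 CPM, most of the cone sum. All 35 genes with at least 10 CPM were at least 2-fold lower in aCXCR2, against 20.3% of all genes passing that minimum, and 0 were higher, against 5.59%. Arr3, the cone arrestin, was under the minimum at 9.59 CPM in NRS. Among rod genes the ratio ran from 8.84 for Cngb1 to 14.2 for Gnat1, and among shared genes from 3.85 for Rdh12 to 13.9 for Sag. Opn1sw, the short-wavelength cone opsin, had 1958 UMIs in NRS and 25 in aCXCR2, a 109-fold ratio (73.9 to 169). Without shared barcodes the ratios were 10.5 for the rod genes, 8.93 for the shared genes, 8.55 for the cone genes and 90.3 for Opn1sw. These sums mix the number of photoreceptors in each library with the level in each photoreceptor, so the levels within classes follow.

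Most of these UMIs lay in a few barcode classes, shown in the bar chart of shares by class. Photoreceptor-like barcodes (692 in NRS, 215 in aCXCR2) held 37.9% and 46.9% of the rod UMIs and 47.2% and 57.2% of the cone UMIs. Barcodes over 10% mitochondrial, which the filter removed, held 52.4% of the rod UMIs of NRS and 34.0% of those of aCXCR2. A mixed class of 488 and 118 barcodes, which scored for both photoreceptor and other markers, held 6.71% and 15.1%. Its rod level was 10230.1 and 6929 CPM beside neutrophil markers at 27068 and 89940.2 CPM, and 33 of its 118 aCXCR2 barcodes were shared between libraries. Neutrophil-like barcodes held 0.484% and 1.69% of the rod UMIs, and macrophage-scoring barcodes 0.627% and 1.71%. The Ly6G purification and the mitochondrial limit can set all these shares.

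**Figure D1:**
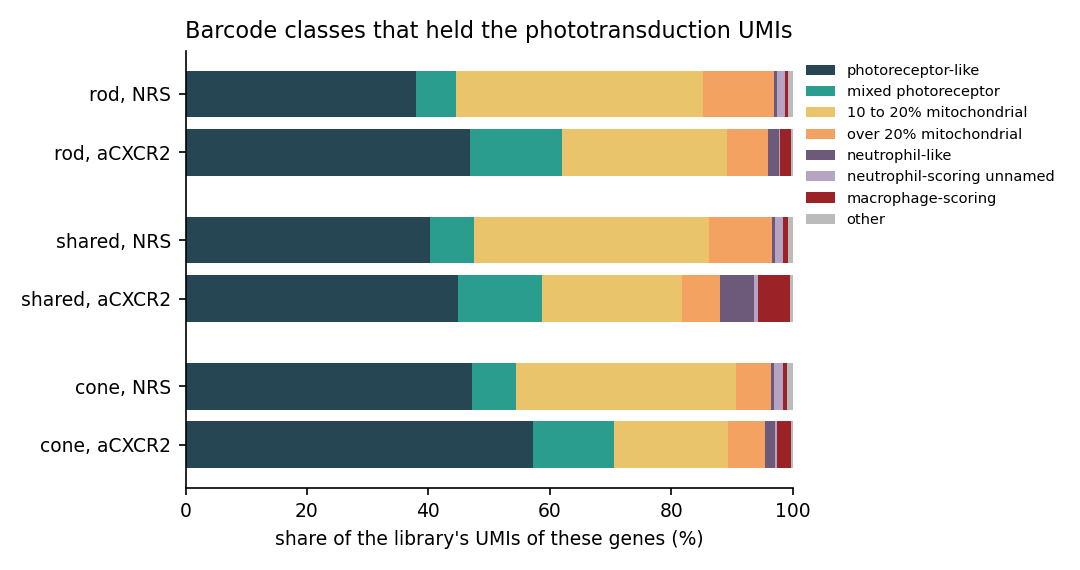
Share (%) of each library's UMIs of the rod, shared and cone genes that lay in each class of barcodes. Photoreceptor-like barcodes held 37.9% of rod UMIs in NRS and 46.9% in aCXCR2, and the 2 mitochondrial classes together held 52.4% and 34.0%.

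Barcodes with 10 to 20% mitochondrial UMIs differed between the libraries in the rod genes. In NRS, 698 such barcodes had a rod level of 22657 CPM and a median of 101 rod UMIs. In aCXCR2, 213 had 8492 CPM and a median of 1 rod UMI, and 7576 CPM without the 37 shared barcodes among them. The markers of the class differed as well, with neutrophil markers at 3496 (NRS) and 42313 CPM (aCXCR2), macrophage markers at 3839 and 12980 CPM, and the photoreceptor markers outside the 36 genes at 7488 and 2840.1 CPM. Their part in the rod values was not tested. Against the main rod cluster, the 10 rod genes of this NRS class lay between -0.23 and 0.26 on the log2 scale. None of its rod or shared genes was 2-fold lower, where 0.273% of all genes were, and 5 of 6 cone genes were at least 2-fold higher, where 3.72% of all genes were. In aCXCR2, 7 of the 10 rod genes and 17 of the 20 shared genes were at least 2-fold lower in this class than in the main rod cluster, where 27.5% of all genes were, and 0 were higher, where 17.5% were. Without shared barcodes the NRS counts were again 0 lower and 5 cone genes higher, and in aCXCR2 10 rod and 18 shared genes were lower.

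Clusters were named by marker lists that hold none of the 36 genes. Marker levels thus describe the photoreceptor-like class and are no independent check of its label. In photoreceptor-like barcodes all 18 photoreceptor markers outside the 36 genes were detected in both libraries. Their summed level was 7914 (NRS) and 6378 CPM (aCXCR2). The neutrophil markers (12 of 12 detected) summed to 2774 (NRS) and 9063 CPM (aCXCR2) in the same barcodes, and macrophage markers to 618 and 884 CPM. The part of this difference in the ratios of the phototransduction genes was not tested.

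Within photoreceptor-like barcodes the rod genes stood near each other in the 2 libraries. Their sum was 20328 (NRS) and 15539 CPM (aCXCR2), a ratio of 1.31 (1.29 to 1.32), and without shared barcodes it was 19698 and 15529 CPM. The shared genes summed to 38228 and 30762 CPM (1.24) and the cone genes to 2512 and 2080.3 CPM (1.21, 1.17 to 1.25). Gnb3 held 19475 of the 23583 cone UMIs in NRS and 2924 of 3636 in aCXCR2. Of the 36 genes, all passing the 10 CPM minimum, only Opn1sw was at least 2-fold lower in aCXCR2, against 1.39% of all genes, and 0 were at least 2-fold higher, against 3.63%. The median log2 ratio of aCXCR2 over NRS was -0.28 for the rod genes, -0.21 for the shared genes and 0.08 for the cone genes, and 0.14 for all genes.

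**Figure D2:**
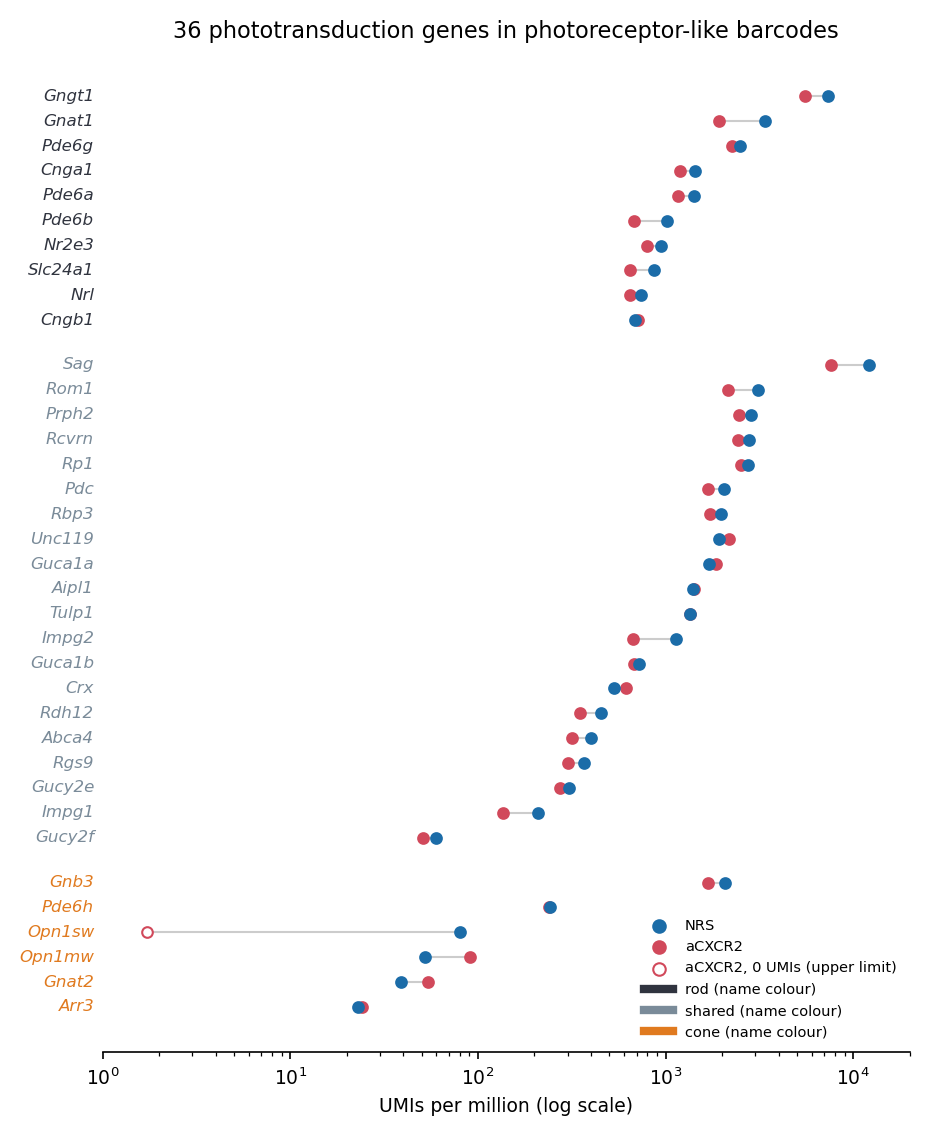
Level of each of the 36 genes in photoreceptor-like barcodes (CPM, log axis), with 1 point per library and gene names coloured by group. The points of a gene lie within 2-fold of each other for 35 genes, and Opn1sw is at 80.5 in NRS and at 0 UMIs in aCXCR2 (open circle, drawn at the upper limit of 1.72).

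Of the rod transducin genes, Gngt1, the gamma subunit, was at 7344 (NRS) and 5518 CPM (aCXCR2), the highest of the rod genes. Gnat1, the alpha subunit that carries the signal to the phosphodiesterase, was at 3400 and 1920.1 CPM. Its ratio of 1.77 was the largest of the rod genes, and without shared barcodes the levels were 2980.2 and 1912 CPM. The rod phosphodiesterase was present through both catalytic subunits and its inhibitor. Pde6a was at 1419 and 1160 CPM, Pde6b at 1012 and 680.3 CPM, and the inhibitory Pde6g at 2482 and 2267 CPM. The cyclic GMP-gated channel subunits were Cnga1 at 1433 and 1198 CPM and Cngb1 at 686 and 709 CPM. Cngb1 was the lowest of the rod genes in NRS and the one whose ratio lay below 1 (0.968). Slc24a1, which exchanges calcium and potassium for sodium in the rod outer segment, was at 864 and 646 CPM, and the rod transcription factors Nrl and Nr2e3 were at 737 and 643 CPM and at 949.8 and 796 CPM.

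Among the shared genes, Sag, the arrestin that binds activated rod opsin, had the highest level of the 36 at 12155 (NRS) and 7606 CPM (aCXCR2). Rom1 and Prph2, the tetraspanins that shape disc rims, were at 3117 and 2152 CPM and at 2864 and 2472 CPM. Rp1, a microtubule protein of the outer segment axoneme, was at 2749 and 2515 CPM. On the log2 scale these differences were -0.68 for Sag, -0.53 for Rom1, -0.21 for Prph2 and -0.13 for Rp1, all short of 2-fold. Rcvrn, the calcium sensor recoverin, was at 2779 and 2428 CPM. Pdc, phosducin, which binds transducin beta-gamma, was at 2036 and 1686 CPM.

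The genes that restore cyclic GMP spanned a wide range. Guca1a and Guca1b, the activators of guanylyl cyclase, were at 1712 and 1861 CPM and at 718 and 677 CPM. The cyclases themselves were lower, with Gucy2e at 304 and 275 CPM and Gucy2f, the lowest of the rod and shared genes, at 59.6 and 50.9 CPM. Rgs9, the GTPase accelerator of transducin, was at 366 and 302 CPM. The chaperones Aipl1 (for the phosphodiesterase) and Unc119 (for transducin alpha) were at 1407 and 1415 CPM and at 1914 and 2172 CPM. Crx, the transcription factor of both photoreceptor types, was at 529 and 616 CPM, the lowest ratio of the shared genes (0.859).

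The visual cycle and matrix genes completed the shared group. Rbp3, the retinoid carrier of the space around the outer segments, was at 1969 and 1714 CPM, the retinal flippase Abca4 at 400.3 and 316 CPM, and the retinol dehydrogenase Rdh12 at 450.3 and 348 CPM. Tulp1, a trafficking protein, was at 1350.5 and 1353 CPM. Impg1 and Impg2, proteoglycans of the interphotoreceptor matrix, were at 209.7 and 137 CPM and at 1141 and 667 CPM. Impg2 had the largest ratio of the shared genes at 1.71.

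The photoreceptor-like class was made of 3 clusters, and their proportions differed between the libraries. Cluster 5, the main rod cluster, held 616 of the 692 NRS barcodes and 131 of the 215 aCXCR2 barcodes. Cluster 15 held 58 (8.38%, 6.43 to 10.7%) and 82 (38.1%, 31.6 to 45.0%), and cluster 19 held 18 and 2. Within cluster 5 the rod sum was 21162 and 19099 CPM, a ratio of 1.11 (1.09 to 1.13), the shared sum 39556 and 36698 CPM (1.08) and the cone sum 2192 and 2177 CPM, nearly equal. Gnb3 held 16824 of the 17851 cone UMIs of this cluster in NRS and 1843 of 1878 in aCXCR2. Its cone sum thus mainly describes that gene. The rod gene ratios in cluster 5 ran from 0.824 for Cngb1 to 1.32 for Pde6b, and the shared gene ratios from 0.818 for Rcvrn to 1.33 for Gucy2f. Gnat1 was at 3609 and 2868 CPM there and Sag at 12700.1 and 9663 CPM. In this cluster 33 of the 36 genes passed the 10 CPM minimum, with 2 lower in aCXCR2, against 2.79% of all genes, and 0 higher, against 1.57%. These were the cone genes Opn1mw (22.3 and 2.32 CPM) and Pde6h (81.5 and 25.5 CPM). Without shared barcodes Opn1mw was at 5.03 and 2.34 CPM, under the minimum, and Pde6h at 51.9 and 24.5 CPM.

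Cluster 15 had less of most phototransduction RNA than cluster 5, in both libraries. Its rod sum was 12522 (NRS) and 11368 CPM (aCXCR2). Gnat1 was at 970.5 (NRS) and 757 CPM (aCXCR2), which is -1.89 and -1.92 on the log2 scale relative to cluster 5. The other genes at least 2-fold lower in both libraries were Slc24a1 (log2 difference -1.60 and -1.45), Impg2 (-1.83 and -1.37), Rom1 (-1.34 and -1.48), Impg1 (-1.28 and -1.28) and Rcvrn (-1.07 and -1.58). Counting each library alone, 2 rod, 7 shared and 2 cone genes were at least 2-fold lower in NRS, where 5.67% of all genes were, and 2 rod and 4 shared genes in aCXCR2, where 5.31% were. The cone gene Arr3 was at least 2-fold higher in NRS (log2 difference 1.37, from 8 UMIs in cluster 15), where 16% of all genes were, and 0 of the 36 in aCXCR2, where 19.5% were. The median log2 difference was -0.78 and -0.60 for the rod genes and -0.83 and -0.62 for the shared genes. The phosphodiesterase and channel genes were lower by less than 2-fold, from -0.45 (Pde6a) to -0.89 (Pde6b) in NRS and from -0.28 (Pde6a) to -0.91 (Cnga1) in aCXCR2. Unc119 (0.25 and 0.22), Guca1a (0.17 and 0.51) and Crx (0.07 and 0.47) were slightly above 0 in both libraries. Without the 33 shared NRS barcodes of cluster 5, the Gnat1 difference in NRS was -1.72, and 2 rod and 5 shared genes were at least 2-fold lower.

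Within cluster 15 itself, 33 of the 36 genes passed the minimum and 0 were 2-fold apart between the libraries, against 4.05% of all genes lower and 5.07% higher in aCXCR2. Its rod sums had a ratio of 1.10 (1.07 to 1.14). The cluster also differed from cluster 5 in other measures. Its median mitochondrial share was 2.29% and 1.67%, against 5.43% and 5.75% in cluster 5, and its neutrophil markers summed to 3835 and 11162 CPM, against 2556 and 3684 CPM. None of its barcodes was shared between libraries. The part of these measures in the lower levels was not tested.

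**Figure D3:**
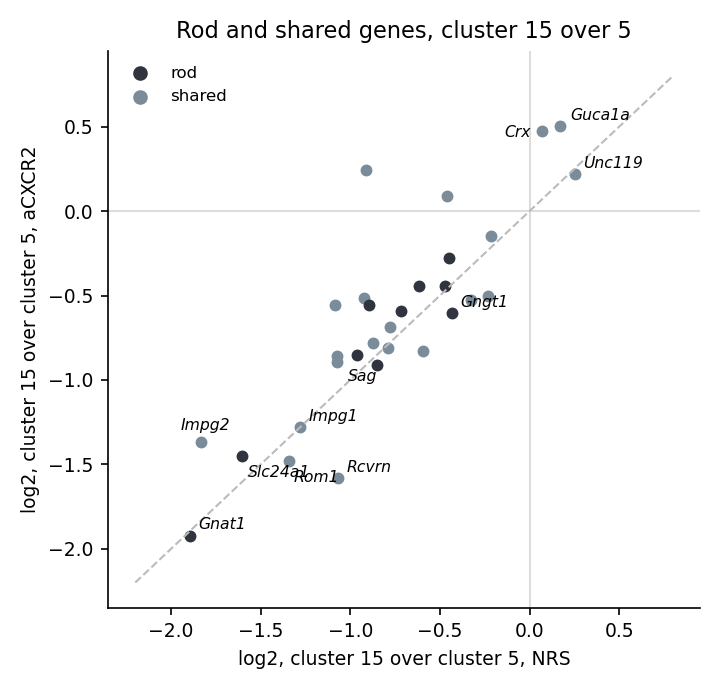
Log2 ratio of cluster 15 over cluster 5 for the 30 rod and shared genes, NRS on the horizontal and aCXCR2 on the vertical axis, with the dashed line marking equal values. Gnat1 lies lowest at -1.89 and -1.92, and Unc119, Guca1a and Crx lie above 0 on both axes.

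Cone genes behaved as 2 sets in photoreceptor-like barcodes. Gnb3, the transducin beta subunit of cones, was at 2074 (NRS) and 1673 CPM (aCXCR2), close to the rod genes, and cluster 19, the cluster rich in cone markers, held only 10.2% and 5.20% of its UMIs. In cluster 5 it was at 2066 and 2137 CPM. The other 5 cone genes were low over the class and concentrated in cluster 19. Pde6h, the inhibitory subunit of the cone phosphodiesterase, was at 243 and 238 CPM. Gnat2, the cone transducin alpha subunit, was at 39.0 and 54.4 CPM, and Arr3 at 22.8 and 24.0 CPM. Of their NRS UMIs, cluster 19 held 70.8% for Pde6h, 83.1% for Gnat2 and 72.9% for Arr3.

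The 2 cone opsins went opposite ways between the libraries in the photoreceptor-like class only. Over all barcodes both were lower in aCXCR2, Opn1mw by 8.91-fold. In cluster 5 Opn1mw was 9.64-fold lower there, and under the minimum without shared barcodes. Opn1sw had 756 UMIs in NRS photoreceptor-like barcodes (80.5 CPM) and 0 in aCXCR2, where 3 counts over the class, the number a count of 0 allows, correspond to 1.72 CPM. By counting error alone, this made it at least 46.9-fold lower in aCXCR2, or at least 22.3-fold lower without shared barcodes (38.5 CPM in NRS). Cluster 19 held 90.6% of the NRS Opn1sw UMIs, and 1 barcode held 318 of the 756. The bounds do not cover this spread between barcodes. In NRS, 4 of the 18 barcodes of cluster 19 had Opn1mw only and 4 had neither opsin. Opn1mw, the middle-wavelength opsin, was at 52.0 CPM in NRS (488 UMIs) and 91.0 CPM in aCXCR2 (159 UMIs), and 98.7% of the aCXCR2 UMIs came from the 2 barcodes of cluster 19. Without shared barcodes Opn1mw was at 36.8 (NRS) and 91.3 CPM (aCXCR2), past 2-fold. With so few cone barcodes in aCXCR2, the opsin levels there rest on those 2 barcodes.

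Cluster 19 was deep, with a median of 33984.5 UMIs per barcode in NRS. Its NRS levels were 928 CPM for Opn1sw, 411 CPM for Opn1mw, 211 CPM for Arr3, 412 CPM for Gnat2 and 2190.1 CPM for Pde6h. The 6 shared barcodes among its 18 NRS barcodes held 58.1% of its UMIs, and without them Opn1sw was at 539.6 CPM and Opn1mw at 617 CPM. Of the 6 cone genes, 5 were at least 2-fold higher there than in cluster 5 in NRS, where 4.89% of all genes were, and 4 of 5 passing the minimum in aCXCR2, where 19.2% were. Gnb3 was the exception, at log2 differences of 0.39 and -0.25. Rod RNA stayed high in these barcodes, with a rod sum of 16476 and 18708 CPM and Gnat1 at 2758 and 3260 CPM.

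Opsins were seen together in many of these barcodes. Of the 18 NRS barcodes of cluster 19, 9 had UMIs of both opsins, 4 of Opn1mw only, 1 of Opn1sw only and 4 of neither. The 6 shared barcodes were the deepest of the 18 (median 68385 UMIs) and include those with 318 and 49 UMIs of Opn1sw. This split was not counted without them. Among the 9 with both, Opn1sw exceeded Opn1mw over 10-fold in 1 (49 and 2 UMIs). The barcode with Opn1sw only had 1 UMI of it, too few to give a ratio. The 4 with Opn1mw only had 7, 22, 22 and 30 UMIs of it. Both aCXCR2 barcodes had Opn1mw only, with 50 and 107 UMIs. An NRS barcode of 7661 UMIs had 60 UMIs of Pde6h and 0 of Gnat1. Another, of 9384 UMIs, had none of Arr3, Pde6h, Gnat2 or either opsin but 49 of Trpm1, a channel gene known from ON bipolar cells.

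**Figure D4:**
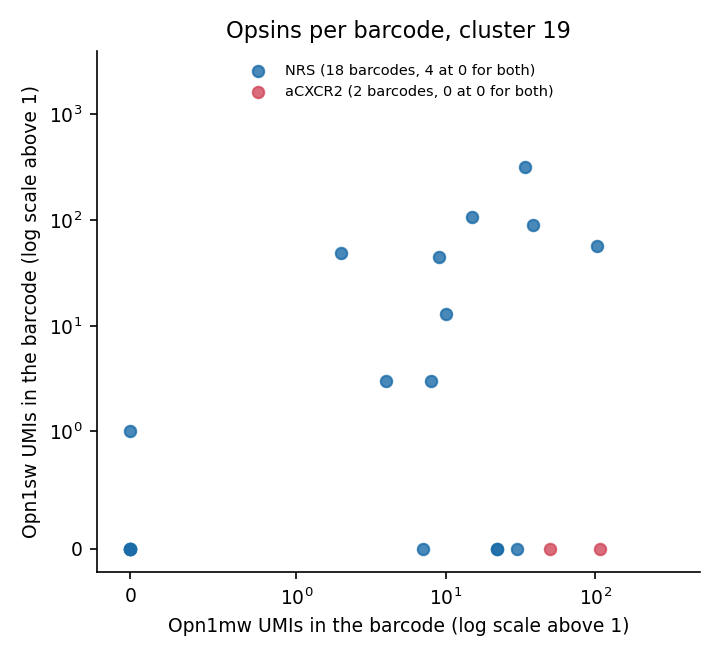
UMIs of Opn1mw (horizontal) and Opn1sw (vertical) in each barcode of cluster 19, both on a log scale above 1 and linear from 0 to 1. Of the 18 NRS barcodes, 9 have both opsins, and both aCXCR2 barcodes lie on the axis at 0 Opn1sw, with 50 and 107 Opn1mw UMIs.

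Cone-rich barcodes were also counted directly, as those with at least 3 UMIs over Arr3, Pde6h and Gnat2 and at least 2 of these genes seen. There were 41 among 692 NRS photoreceptor-like barcodes (5.92%, 4.28 to 7.95%) and 6 among 215 in aCXCR2 (2.79%, 1.03 to 5.97%). The intervals overlap, and without shared barcodes the NRS number was 27. In NRS, 24 of the 41 were in cluster 5 and 17 in cluster 19. Of the 41, 22 had Opn1sw, 26 had Opn1mw, 15 had both and 8 neither. Of the 6 in aCXCR2, 3 had Opn1mw, 0 had Opn1sw and 3 had neither. A further 38 NRS and 2 aCXCR2 cone-rich barcodes lay in the class of 10 to 20% mitochondrial UMIs, and over all barcodes there were 103 and 10.

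Pairs of rod and cone forms of 1 protein gave the balance of the 2 systems. In photoreceptor-like barcodes Gnat1 exceeded Gnat2 by 87.2 times in NRS (78.7 to 96.9) and 35.3 times in aCXCR2 (28.8 to 43.8). In cluster 5 the ratios were 474 (369.7 to 619) and 618.5 (241 to 2272), and in cluster 19 they fell to 6.69 and 3.10. Pde6g exceeded Pde6h by 10.2 and 9.53 times in the class, and by 31.6 and 101 times in cluster 5. In cluster 19 the cone form was the more abundant one, at Pde6g over Pde6h ratios of 0.924 and 0.601. Sag exceeded Arr3 by 533 and 317 times in the class, and by 48.9 and 29.6 times in cluster 19. In aCXCR2 the 2 barcodes of cluster 19 held 93.7% of the Gnat2, 92.1% of the Pde6h and 64.3% of the Arr3 UMIs of the class. The aCXCR2 ratios of the class thus rest largely on 2 barcodes, and the intervals do not cover that spread. Without shared barcodes the NRS ratios of the class were 96.3 for Gnat1 over Gnat2, 15.9 for Pde6g over Pde6h and 611 for Sag over Arr3, and in cluster 5 Pde6g exceeded Pde6h by 52.1 times. In cluster 19 they were 5.30, 0.884 and 30.3.

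Phototransduction RNA was also counted in barcodes named by immune cell markers. In droplet libraries RNA released from broken cells, or a droplet that took up more than 1 cell, can add UMIs of another cell type to a barcode. The doublet caller marked 0 and 4 barcodes and so did not work, and doublets were left in. The part of either source in these counts was not tested. In neutrophil-like barcodes (1012 in NRS, 2142 in aCXCR2) the rod genes summed to 545 CPM in NRS (523 to 567) and 49.5 CPM in aCXCR2 (46.5 to 52.7), 11-fold apart (10.2 to 11.9). The counts were unevenly spread over barcodes. The 5% of barcodes with the most rod UMIs held 23.9% of these rod UMIs in NRS and 55.4% in aCXCR2, where 1 barcode held 103 of 980 and 75.6% of barcodes had 0. Without those 5%, which were taken by the rod UMIs themselves, the rod sum was 443 and 23.6 CPM. The sums over the whole class were 2.68% (2.57 to 2.79%) and 0.319% (0.299 to 0.340%) of the photoreceptor-like level. The cone genes summed to 64.4 and 5.56 CPM, 2.56% and 0.267% of the photoreceptor-like level, and most of this was Gnb3 (54.1 and 3.79 CPM). Of 26 genes passing the 10 CPM minimum, 24 were at least 2-fold lower in aCXCR2, against 6.26% of all genes, and 0 were higher, against 1.36%. Of the 24, only Sag (34.2 CPM), Gngt1 (16.4 CPM), Guca1a (11.5 CPM) and Rom1 (10.3 CPM) reached the minimum in aCXCR2. The others of the 24 passed through NRS alone, which tilts the count, and the median given next, toward lower. The median log2 ratio was -3.15 for the 26 genes and -0.40 for all genes, and TMM scaling moved the latter to 0.10.

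The most abundant photoreceptor genes led here too. In neutrophil-like barcodes Sag was at 289.7 (NRS) and 34.2 CPM (aCXCR2), Gngt1 at 193 and 16.4 CPM, and Gnat1 at 113 and 9.24 CPM. Rom1 was at 84.3 and 10.3 CPM, Prph2 at 76.0 and 9.60 CPM, and Rp1 at 48.5 and 6.92 CPM. The rod gene ratios ran from 7.80 for Cnga1 to 12.4 for Nr2e3. Of the cone genes, Gnb3 was at 54.1 and 3.79 CPM. The others were near 0, with 10 and 6 UMIs of Opn1sw, 4 and 7 of Opn1mw, 28 and 21 of Pde6h, 4 and 1 of Gnat2, and 0 of Arr3 in both libraries, where a count of 0 allows up to 3.

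Macrophage-scoring barcodes (607 in NRS, 1769 in aCXCR2), which matched monocyte and macrophage markers best, had a lower level of the same kind. The rod genes summed to 202 (NRS) and 18.2 CPM (aCXCR2), 11.1-fold apart (10.3 to 11.9), which is 0.994% and 0.117% of the photoreceptor-like level, and the cone genes to 22.9 and 2.57 CPM. Here the top 5% of barcodes held 44.8% and 44.1% of the rod UMIs, with 425 of 3153 in 1 NRS barcode, and without them the rod sum was 121 and 10.7 CPM. Of 16 genes passing the minimum, 14 were at least 2-fold lower in aCXCR2, against 2.48% of all genes, and 0 were higher, against 3.06%. All rod genes were under 10 CPM in aCXCR2 (5.79 at most). Only Guca1a and Unc119, neither of them counted as lower, reached the minimum there. The 14 genes counted as lower thus passed through NRS alone, which tilts the count toward lower. Sag was at 103 and 8.18 CPM, Gngt1 at 76.1 and 5.79 CPM, and Gnat1 at 40.7 and 3.53 CPM. Prph2 was at 29.0 and 2.04 CPM, Rom1 at 31.2 and 4.85 CPM, Rp1 at 15.3 and 1.49 CPM, and Gnb3 at 19.8 and 2.15 CPM. The other cone genes had 9 and 2 UMIs of Opn1sw, 4 and 2 of Opn1mw, 4 and 1 of Arr3, 4 and 1 of Gnat2, and 27 and 17 of Pde6h. In UMIs per barcode the order of the 2 classes was the reverse, since macrophage-scoring barcodes were deeper (medians 23170.0 and 30046 UMIs, against 4094.5 and 7755.5). Their mean was 5.19 rod UMIs in NRS and 0.560 in aCXCR2, against 2.41 and 0.458 in neutrophil-like barcodes.

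Every cluster of both immune classes was higher in NRS than in aCXCR2. By cluster the rod sum of neutrophil-like barcodes ran from 390.1 to 774 CPM in NRS and from 37.9 to 85.5 CPM in aCXCR2, with no overlap between libraries. In macrophage-scoring clusters it ran from 152 to 229 CPM in NRS and from 15.3 to 20.4 CPM in aCXCR2. Neutrophil-scoring clusters that could not be named (2666 and 523 barcodes) had 454 and 35.2 CPM. After each barcode was thinned to 1000 UMIs, 41.7% (38.5 to 44.8%) of NRS and 4.28% (3.46 to 5.23%) of aCXCR2 neutrophil-like barcodes had a rod UMI, and 24.1% and 1.99% of macrophage-scoring barcodes did. Thinning left out 35, 18, 13 and 6 shallower barcodes, in that order, and unthinned the shares were 84.2%, 24.4%, 89.0% and 33.2%. In photoreceptor-like barcodes, thinned the same way, 672 of 673 and 208 of 208 had a rod UMI. A cone UMI was seen in 5.94% and 0.659% of thinned neutrophil-like barcodes and in 4.38% and 0.284% of macrophage-scoring ones. Without shared barcodes the neutrophil-like rod sums were 544 and 49.4 CPM.

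Among genes with at least 10 UMIs, most kept proportions near those in photoreceptors, and 3 stood apart. Unc119, Rdh12 and Guca1a, singled out after their values were seen, held 6.67% and 9.06% of the phototransduction UMIs in photoreceptor-like barcodes. In neutrophil-like barcodes they held 18.8% in NRS and 61.7% in aCXCR2, and in macrophage-scoring barcodes 18.9% and 64.1%. The other 33 genes were at 1419 and 152 CPM in neutrophil-like barcodes (9.37-fold) and at 520.4 and 49.3 CPM in macrophage-scoring ones (10.6-fold). Across genes with at least 10 UMIs in both classes, the correlation of log10 CPM between neutrophil-like and photoreceptor-like barcodes was r = 0.897 over 32 genes in NRS and r = 0.609 over 30 genes in aCXCR2. Without the 3 genes it was 0.984 over 29 and 0.969 over 27, a rise that follows from how the 3 were picked. Genes are not independent replicates, and both classes share a library. Among the remaining genes, the percentage of the photoreceptor-like level ran from 1.28% (Rgs9) to 3.32% (Gnat1) in NRS and from 0.197% (Nr2e3) to 0.481% (Gnat1) in aCXCR2.

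**Figure D5:**
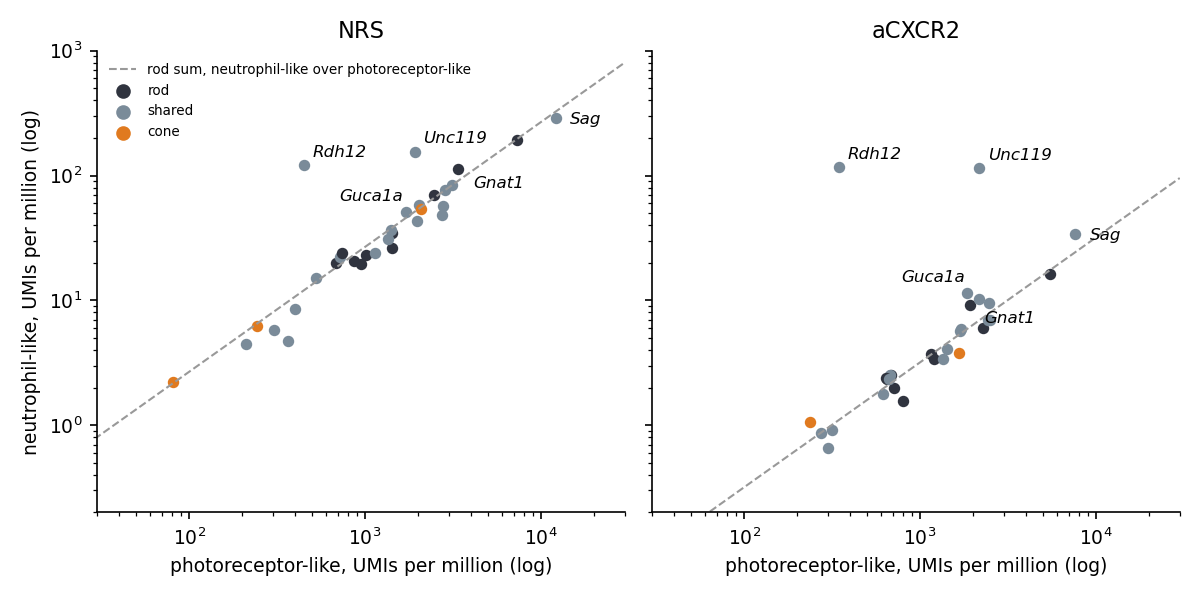
Level in neutrophil-like barcodes against level in photoreceptor-like barcodes (CPM, both axes log), 1 panel per library and 1 point per gene with at least 10 UMIs in both classes. The dashed line marks the ratio of the rod sums, 2.68% in NRS and 0.319% in aCXCR2, and in aCXCR2 Rdh12 and Unc119 stand far above it.

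Rdh12, which reduces retinal, was at 121 (NRS) and 117 CPM (aCXCR2) in neutrophil-like barcodes, a ratio of 1.03. These were 27.0% and 33.7% of its photoreceptor-like level. Its level differed between neutrophil-like clusters beyond the counting intervals. In aCXCR2 it was 373 CPM in cluster 10 (309.6 to 444), 247 CPM in cluster 13 (229 to 266) and 193 CPM in cluster 14 (179 to 207), and 37.1 CPM in cluster 4 (32.4 to 42.2). In NRS cluster 13 had 843 CPM (602 to 1148), from 12 barcodes, cluster 10 had 203 CPM (179 to 228) and cluster 4 had 33.6 CPM (19.9 to 53.1). The makeup of the class differed, with 386 NRS and 67 aCXCR2 barcodes in cluster 10 and 12 and 367 in cluster 13. Within clusters Rdh12 was higher in aCXCR2 in clusters 4, 6, 9, 10 and 14 and lower in cluster 13. The intervals of the libraries were apart only in clusters 10 and 13. The rod sum of cluster 13 was 674 (NRS) and 47.9 CPM (aCXCR2). In macrophage-scoring barcodes it was at 4.42 and 2.99 CPM. After thinning, 12.4% and 9.79% of neutrophil-like and 0.673% and 0.284% of macrophage-scoring barcodes had an Rdh12 UMI, and unthinned 26.4% and 42.0% of neutrophil-like barcodes did. Rdh11, a related dehydrogenase outside the 36 genes, was at 17.7 and 10.3 CPM in neutrophil-like barcodes.

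Unc119 was at 155.8 (NRS) and 115 CPM (aCXCR2) in neutrophil-like barcodes, 8.14% and 5.29% of its photoreceptor-like level. The ratio of 1.36 turned to 0.972 with TMM scaling. In macrophage-scoring barcodes Unc119 was at 56.0 and 34.4 CPM. After thinning, 14.7% and 10.1% of neutrophil-like barcodes had a UMI, against 85.7% and 88.0% of photoreceptor-like ones, and unthinned 43.8% and 51.9% of neutrophil-like barcodes did. Guca1a stood apart most in the macrophage-scoring class, where it was at 61.2 and 50.6 CPM (1.21-fold, 3.58% and 2.72% of the photoreceptor-like level). In neutrophil-like barcodes it was at 51.2 and 11.5 CPM, 4.45-fold lower in aCXCR2. Leaving out Unc119, Rdh12 and Guca1a, the lowest ratio among the 12 shared genes past the 10 CPM minimum was 7.01, for Rp1. The Guca1a level in neutrophil-like barcodes was 2.99% and 0.619% of the photoreceptor-like one. No annotated gene overlapped any of these 3 genes in the annotation used (GENCODE vM21). A gene overlaps Rcvrn, Pdc, Nr2e3, Opn1sw, Opn1mw and Pde6h on the opposite strand and Nr2e3 on the same strand, and how overlaps were counted is not stated in the labels used here.

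Of 30 other phototransduction and retinoid genes, counted as 1 list, 26 passed the minimum in photoreceptor-like barcodes, with 1 at least 2-fold lower in aCXCR2 (Ccdc136), against 1.39% of all genes, and 1 higher (Cngb3, a subunit of the cone channel), against 3.63%. In cluster 5, 23 passed and 0 were 2-fold apart, against 2.79% of all genes lower and 1.57% higher. In cluster 19, 29 passed, with 2 lower, against 23.7% of all genes, and 6 higher, against 15.3%, all from 2 barcodes in aCXCR2. In neutrophil-like barcodes 15 passed, with 12 lower in aCXCR2, against 6.26% of all genes, and 0 higher, against 1.36%. Of the 12, only Rpgrip1 reached 10 CPM in aCXCR2 (14.9 CPM), and the others passed through NRS alone. In macrophage-scoring barcodes 4 passed and 0 were 2-fold apart, against 2.48% lower and 3.06% higher. The genes short of 2-fold included Gngt2 and Gnb1, G protein subunits with high levels in the immune classes. In neutrophil-like barcodes their log2 ratios of aCXCR2 over NRS were -0.73 and -0.64, against a median of -0.40 for all genes. Gngt2, the cone transducin gamma subunit, was at 257 and 154 CPM in neutrophil-like and 361 and 439 CPM in macrophage-scoring barcodes, against 45.3 and 29.0 CPM in cluster 5 and 949 and 2043 CPM in cluster 19. Gnb1, the beta subunit of rod transducin, was at 429 and 275 CPM in neutrophil-like barcodes and at 3313 and 3471 CPM in cluster 5.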

How the data were processed

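Both libraries were made with the 10x Chromium 3' kit per the labels' protocols. The deposited matrices hold raw UMI counts, whole numbers that were not normalized, and their file headers give software version 3.0.0. Per the submitters' processing notes, Cell Ranger and Seurat were used and the build was GRCh38, a human one, whereas 31053 of 31053 feature identifiers are mouse Ensembl identifiers. The authors' mouse build and their treatment of overlapping genes are not given in the sources used here.

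Barcodes with at least 500 UMIs entered. Those with 200 or more genes and no more than 10% mitochondrial UMIs were clustered without library correction in scanpy 1.11.5 (2000 variable genes without the 36 studied, 30 principal components, 15 neighbours, leidenalg 0.10.2 at resolution 1). Clusters were named from marker lists that hold none of the 36 genes, with a prior of 100 CPM. The doublet caller marked 0 and 4 barcodes (0.0829%) and so did not work. Doublets were left in, and an alternative removed the 256 and 186 highest scores. Counts were summed by library and class. Intervals are at the 95% level and floors are 3 counts. The TMM alternative used edgeR 4.0.16 (R 4.3.3). Counting ran in Python 3.11.15 with pandas 2.3.3, scipy 1.17.1, numpy 2.4.6 and matplotlib 3.10.9. The calculation of ratios and intervals was tested on simulated data.

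The members and lists were chosen with earlier results of these data known. Named in full are the 6 genes with the highest summed photoreceptor-like CPM, every cone gene, and any gene 2-fold apart there. Other genes of the set are given for their roles. Alternatives changed the barcode filter, clustering, doublets, scaling, weighting of barcodes, CPM minimum, thinning depth, the cone-rich threshold and the background class. Those without shared barcodes and with cluster 5 alone were added after the data were seen.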

Additional observations from a re-analysis of the deposited data

How the results depend on the processing

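Each group was 1 library, and no replicate was left out. No paired analysis was possible because each group has 1 library. The values show counting error but no variation between animals. Depth limits the cone genes most, with 0 to 28 UMIs of each but Gnb3 in the immune classes, and the cause of the shifts listed here was not tested.

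The rod ratio (NRS over aCXCR2) in photoreceptor-like barcodes, 1.31, was 1.35 with all barcodes clustered, 1.52 with the strict filter (at least 1000 UMIs, 500 genes, at most 5% mitochondrial), 1.47 at resolution 0.5, 1.28 with the highest doublet scores removed, 1.45 with TMM factors, 1.25 as a mean per barcode, 1.27 without shared barcodes and 1.11 in cluster 5. In neutrophil-like barcodes, 11-fold, it was 12.9 (strict), 9.51 (resolution 0.5), 12.1 (the genes allowed in clustering), 13.4 (doublets) and 7.89 (TMM). In macrophage-scoring barcodes, 11.1, it was 5.47 (all barcodes), 12.7 (strict), 12.1 (doublets) and 18.3 (mean per barcode). Genes lower in aCXCR2 in photoreceptor-like barcodes, 1, were 5 with the strict filter (Opn1sw, Opn1mw, Gnat2, Pde6h and Gnat1, at 2075 and 914 CPM) and 3 with doublets removed (Opn1sw, Gnat2 and Pde6h). In neutrophil-like barcodes, 24 of 26 became 10 of 12 at a minimum of 50 CPM. In macrophage-scoring barcodes, 14 of 16 became 2 of 4 at 50 CPM, 33 of 36 with no minimum and 24 as means per barcode. The share of all genes was not counted at the settings of this paragraph. Whether these numbers stand out from it thus cannot be told.

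The NRS rod level in photoreceptor-like barcodes, 20328 CPM, was 23412 (all barcodes), 13537 (strict), 17741 (resolution 0.5), 20842 (doublets), 19698 (no shared barcodes) and 21162 (cluster 5). Their share of NRS rod UMIs, 37.9%, was 85.2% (all barcodes), 11.9% (strict), 44.6% (resolution 0.5), 37.3% (doublets), 35.8% (no shared barcodes) and 32.4%. The neutrophil-like rod level as a percentage of the photoreceptor-like level, 2.68% in NRS, was 3.81% (strict) and 3.19% (resolution 0.5). In aCXCR2, 0.319% became 0.449% (strict), 0.494% (resolution 0.5), 0.281% (the genes allowed in clustering), 0.256% (doublets), 0.353% (without the weakest neutrophil-like cluster) and 0.259% (cluster 5). Thinned to 500 and 2000 UMIs, 26.5% and 59.2% of NRS and 2.85% and 8.57% of aCXCR2 neutrophil-like barcodes had a rod UMI. Cone-rich barcodes, 41 in NRS, were 91 (all barcodes), 11 (strict) and 27 (no shared barcodes), and 6 in aCXCR2 were 10 and 2. The NRS ratio of Pde6g to Pde6h, 10.2, was 12.2 (all barcodes), 12.9 (strict), 9.22 (the genes allowed in clustering), 15.9 (no shared barcodes) and 31.6 (cluster 5). Unc119 turned in photoreceptor-like barcodes, from 0.881 to 1.005 (all barcodes), 1.05 (strict) and 1.06 (resolution 0.5), and in neutrophil-like barcodes from 1.36 to 0.972 (TMM). Rdh12 in neutrophil-like barcodes, 1.03, ranged from 0.742 to 1.23.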
